A study of Mus musculus with 4 samples.

Results

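Immune cells taken from B16F10 tumors were compared with immune cells taken from MC38 tumors, using single-cell RNA libraries of 2 pools per tumor model. B16F10 is a mouse melanoma line and MC38 a mouse colon carcinoma line. Tumors were grown in wild-type (WT) mice or in mice without Lrrc25 (Lrrc25-/-), and were taken on day 14 after injection of B16F10 or on day 26 after injection of MC38. For each of the 4 libraries, 100 mm3 of tumor from each of 3 mice was pooled and dissociated, red cells, debris and dead cells were removed, and 5 volumes of bead-selected CD45+ cells were joined with 1 of the unselected suspension. Genotype was carried as a block, so each tumor model was represented by 1 WT and 1 Lrrc25-/- pool. Tumor model cannot be told apart from the day of harvest. A cell counted as immune when its barcode held at least 300 genes, at least 500 unique molecular identifiers (UMIs, 1 per captured RNA molecule), at most 20% mitochondrial UMIs and at least 1 UMI of Ptprc, the gene of CD45. These conditions were met by 34007 of the 59732 barcodes: 3515 in the WT B16F10 library, 5736 in the Lrrc25-/- B16F10 library, 12042 in the WT MC38 library and 12714 in the Lrrc25-/- MC38 library. Among them, 21055 cells held at least 5 UMIs of C1qa, C1qb and C1qc together and are called C1q-high, and 3617 held at least 2 UMIs of Cd3d, Cd3e and Cd3g with at most 2 of C1q and are called T cells.

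C1q genes encode the starting protein of the classical complement pathway and are made in tissues mainly by macrophages. Macrophages in a tumor can take on different programs. Interferon-gamma from T cells and NK cells raises antigen presentation, Cxcl9 and the nitric oxide synthase Nos2, while other settings favor lipid, iron and debris handling or the recruitment of monocytes through chemokines. T cells that enter a tumor recognize peptides on major histocompatibility complex (MHC) proteins, and cytotoxic T cells kill with perforin and granzymes.

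The labels were checked first. Lrrc25 stood at 103 counts per 1e6 (CPM) in the immune cells of the WT B16F10 library and at 67.4 in those of the WT MC38 library, and at 3.24 and 1.49 in the Lrrc25-/- libraries, so each library matched its genotype. Macrophage markers other than C1q summed to between 11712 and 15598 CPM over the 4 C1q-high sums, and T cell markers other than Cd3 to between 3513 and 4958 CPM over the 4 T cell sums. Both cell sets thus carried the markers of their names in every library. Total UMIs per library ran from 105338548 to 138841749. The median UMIs of an immune cell were 9200 and 7598 in the B16F10 libraries and 4771 and 6114 in the MC38 libraries, giving first the WT and then the Lrrc25-/- library, an order kept below.

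Several measures moved with the tumor model. Of the barcodes past the first 3 filters, 35.9% and 46.6% in B16F10 and 69.7% and 76.1% in MC38 held a Ptprc UMI. Among barcodes that met the C1q condition, 47.5% and 55.8% in B16F10 and 86.3% and 83.9% in MC38 did so. Tumor cell RNA meant at least 3 UMIs of melanocyte genes, or at least 3 of MC38 tumor genes, in a barcode of any library. It was found in 68.9% and 50.9% of B16F10 C1q-high cells and in 3.33% and 4.51% of MC38 C1q-high cells. The C1q-high cells of B16F10 held a median of 10675 and 11977 UMIs, against 5196 and 7064 in MC38. The 2 gene sets were also not matched for level, so these shares do not compare amounts of tumor cell RNA between the models. The median share of mitochondrial UMIs in immune cells was 0.30% and 0.644% in B16F10 and 2.49% and 2.31% in MC38. Xist, which is expressed in female cells, stood at 563 and 580 CPM in MC38 immune cells against 0.0256 and 0.0176 in B16F10, so the sex of the hosts cannot be told apart from the tumor model. Any pair of libraries shared between 0.915% and 1.40% of the barcodes of the smaller library. The part of these measures in the results was not tested, apart from the fits without barcodes that hold tumor cell RNA and without the Ptprc condition.

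Folds also followed the length of the gene on the chromosome. UMIs were summed over the cells of a set in each library and compared between the tumor models by the quasi-likelihood test of edgeR with genotype as a block, and all log2 folds below are MC38 over B16F10. In C1q-high cells the median log2 fold was −0.90 in the fifth of genes with the shortest span (up to 8.689 kb), then −0.56, −0.03 and 0.57, and 1.26 in the fifth with the longest (from 73.663 kb). The T cell medians ran through −0.98, −0.50, −0.03, 0.57 and 1.15 over the same steps. Spearman's rho between span and fold was 0.62 over 7468 genes in C1q-high cells and 0.69 over 7658 genes in T cells, which are correlations across genes and not across samples. The same medians between genotypes within a tumor model stayed between −0.15 and 0.20. A second fit, chosen after the data were seen, took out this trend with offsets that follow span and lowered the 2 correlations to 0.17 and 0.09. It is called the span-scaled fit below, and its value is given for a gene or list where it differs by over 1.5-fold or changes the call.

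**Figure D1:**
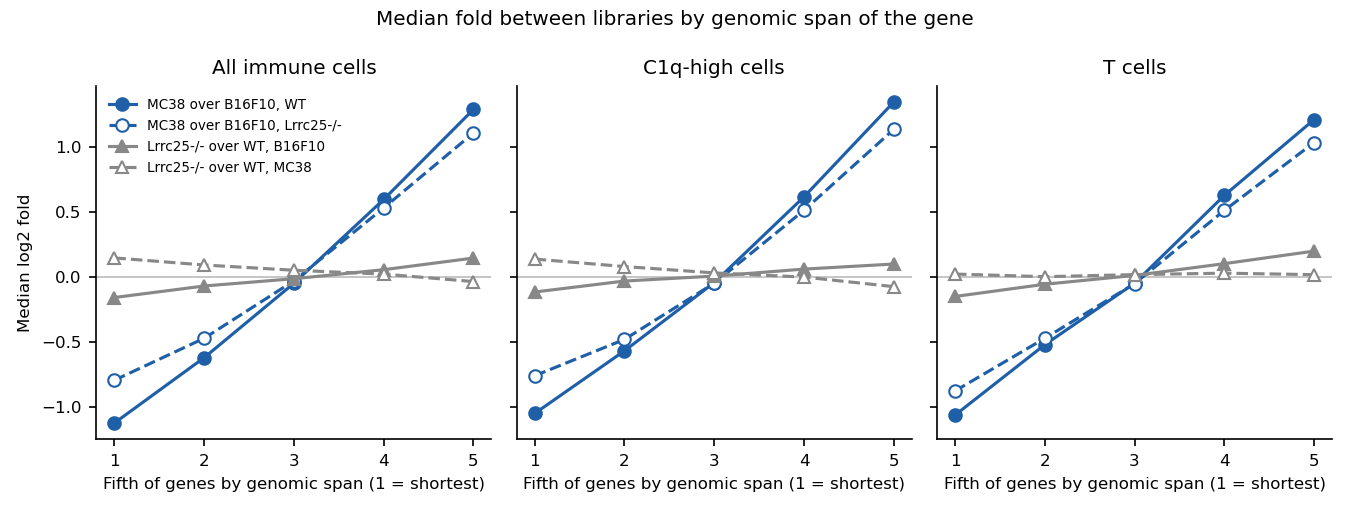
Median log2 fold of MC38 over B16F10 (vertical axis) in 5 bins of genes ordered by genomic span (horizontal axis), for C1q-high cells and T cells, computed within WT and within Lrrc25-/- pools, with the folds between genotypes within a model in grey. From the shortest bin to the longest, the model medians climb from −1.05 to 1.35 within WT and from −0.76 to 1.14 within Lrrc25-/- in C1q-high cells, and from −1.06 to 1.21 and from −0.88 to 1.03 in T cells, while the grey lines stay between −0.15 and 0.20.

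Over all immune cells together, 5624 of 16915 genes were higher in MC38 (33.2%) and 5319 were higher in B16F10 (31.4%) at an adjusted p under 0.05, and scaling to library totals alone moved the median by 0.421 and the counts to 7411 and 3363. These sums also carry the mix of cell types, and in them fewer cells of a type and less RNA per cell cannot be told apart. Of 10 B cell markers, 9 were higher in B16F10 and none in MC38 (median log2 −3.00), and Cd79a, a part of the B cell receptor complex, had 10.6 and 10.02 CPM in B16F10 against 0.624 and 1.02 CPM in MC38 (log2 −3.66 ± 0.26 SE, adjusted p = 2.94e-09, −2.93 span-scaled). Plasmacytoid dendritic cell markers included 5 of 8 that were higher in B16F10 and 2 that were higher in MC38, and Siglech, a surface lectin of these cells, had 20.7 and 18.4 CPM against 1.11 and 2.19 CPM (log2 −3.61 ± 0.25 SE). Summed over the 8 markers, however, the level was higher in MC38, at 732 and 724 CPM against 517 and 593 CPM in B16F10. Of 10 monocyte markers, 7 were higher in B16F10 and 1 in MC38, and Chil3, a secreted chitinase-like protein, had 59.6 and 74.7 CPM against 7.86 and 9.40 CPM (log2 −2.96 ± 0.17 SE). The NK cell list went the other way, with 4 of 8 members higher in MC38 and none in B16F10, although Ncr1, the receptor that defines NK cells, stood between 1.44 and 1.90 CPM in all 4 libraries and was not called. Its members Klre1, Klri2 and Prf1 were also higher in MC38 T cells, as given below, so the list does not mark NK cells alone. Most of these genes stood at low levels, and the 2 large cell sets, C1q-high cells and T cells, are described apart below.

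In C1q-high cells, 4986 of 15676 genes tested were higher in MC38 (31.8%) and 4694 were higher in B16F10 (29.9%) at an adjusted p under 0.05. Scaling to library totals alone moved the median of all genes by 0.344 on the log2 scale and the counts to 6616 and 3451. In both fits, with TMM and with span scaling, 3521 genes were higher in MC38 (22.5%) and 3418 in B16F10 (21.8%). The libraries of the 2 models did not overlap for 85% of genes. With this background, about 3 in 10 members of a list would be called in each direction if the list were like all genes tested. These shares depended on span. Among genes with a mean of at least 10 CPM, 73.4% in the shortest span bin were higher in B16F10 and 7.3% in MC38. In the longest bin, 6.96% were higher in B16F10 and 78.2% in MC38. The counts below were not matched for span, so 3 in 10 is no background for a list of mostly short or mostly long genes. The median log2 fold over all genes tested was 0.04. Each model had 1 WT and 1 Lrrc25-/- pool, so no combination of model and genotype had replicate pools. The p-values measure how far the model difference varied between the 2 genotypes. The fit had 1 residual degree of freedom per gene, with this spread moderated across genes.

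Nos2 and Slc7a2, both tied to the use of arginine, were among the genes furthest up in MC38 C1q-high cells. Nos2, which makes nitric oxide from arginine, stood at 4.83 and 6.52 CPM in B16F10 and at 119 and 206 CPM in MC38 (log2 4.81 ± 0.20 SE, adjusted p = 3.78e-06). Slc7a2, a membrane transporter that brings arginine into macrophages, had 11.3 and 12.8 CPM in B16F10 and 254 and 207 CPM in MC38 (log2 4.25 ± 0.21 SE, adjusted p = 9.08e-06, 3.52 span-scaled). Both genes were low in both B16F10 libraries and high in both MC38 libraries, with no overlap. Ass1, which rebuilds arginine from citrulline, rose from 26.3 and 29.3 to 109 and 191 CPM (log2 2.38 ± 0.21 SE). Arg1, the arginase that degrades arginine, showed a wide spread in B16F10, with 219 CPM in the WT and 656 in the Lrrc25-/- library against 1967 and 1190 in MC38 (log2 2.01 ± 0.50 SE, adjusted p = 0.00884). The libraries did not overlap for Arg1, but its log2 fold was 1.27 without the WT B16F10 library and 2.83 without the Lrrc25-/- B16F10 library, and DESeq2 did not call it. After thinning each cell to 1000 UMIs, an Arg1 UMI was found in 7.39% and 16.1% of B16F10 C1q-high cells and in 58.3% and 45.5% of MC38 C1q-high cells, against 4.03% to 5.56% of T cells, which should lack it. A Nos2 UMI was found in 0.284% and 0.233% of thinned B16F10 cells and in 7.17% and 14.1% of thinned MC38 cells. Without thinning, the shares were 21.6% and 39.4% against 81.7% and 73.1% for Arg1 and 2.70% and 3.18% against 24.1% and 38.7% for Nos2.

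Genes induced by interferon-gamma were higher in MC38 C1q-high cells. Of 19 list members tested, 14 were higher in MC38 and 1 in B16F10, with all of these calls in both fits, and the median log2 fold was 1.76. Cxcl9, which draws Cxcr3-bearing T cells, rose from 149 and 168 to 882 and 1159 CPM (log2 2.68 ± 0.22 SE, adjusted p = 4.9e-05, 3.29 span-scaled). Guanylate-binding and immunity-related GTPases, which act against vacuole-dwelling pathogens, followed: Gbp2 rose from 31.6 and 43.0 to 223 and 296 CPM and Iigp1 from 11.5 and 12.5 to 83.3 and 83.2 CPM (log2 2.80 and 2.79). Cd274, which encodes the checkpoint ligand PD-L1, rose from 63.8 and 73.4 to 194 and 256 CPM (log2 1.70 ± 0.18 SE, adjusted p = 0.000133). The member that went the other way was Cxcl10, a second Cxcr3 ligand that type I interferon also induces. Cxcl10 had 887 and 968 CPM in B16F10 and 213 and 231 CPM in MC38 (log2 −2.06 ± 0.21 SE, adjusted p = 0.000112, −1.25 span-scaled). The 2 ligands of 1 receptor thus differed in opposite directions, and the libraries of the models overlapped for neither.

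**Figure D2:**
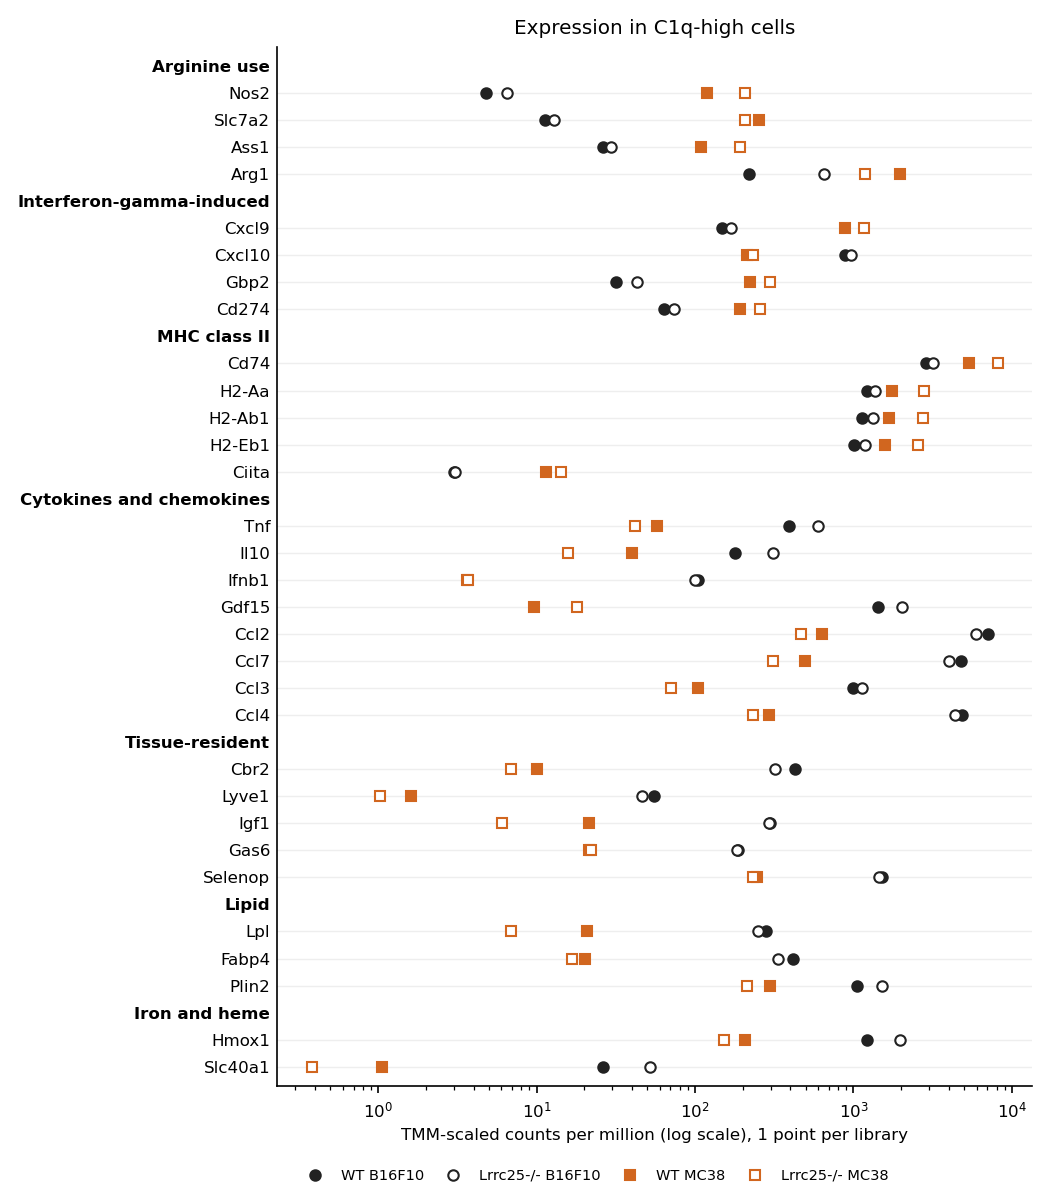
Scaled CPM (horizontal axis, log scale) of 31 genes in C1q-high cells, grouped by role, in the WT (filled) and Lrrc25-/- (open) libraries of B16F10 (black circles) and MC38 (orange squares). Each point is 1 library, and the points of the 2 models lie apart on opposite sides for Nos2 (4.83 and 6.52 against 119 and 206) and for Ccl4 (4859 and 4354 against 292 and 232).

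Antigen presentation genes were higher in MC38 C1q-high cells by smaller amounts. Of 10 MHC class II members, 7 were higher in MC38 and none in B16F10 (median log2 0.79, 1.25 span-scaled), and of 21 class I members, 11 were higher in MC38 and none in B16F10 (median 0.56). Ciita, the master regulator of class II genes, rose from 3.01 and 3.04 to 11.5 and 14.2 CPM (log2 2.08 ± 0.21 SE). Cd74, the chaperone that escorts class II proteins, stood at 2858 and 3160 CPM in B16F10 and at 5394 and 8131 CPM in MC38 (log2 1.14 ± 0.28 SE, adjusted p = 0.00841). Among the class II chains, H2-Aa had 1219 and 1376 CPM in B16F10 and 1762 and 2776 CPM in MC38 (log2 0.77 ± 0.25 SE, adjusted p = 0.0258, 1.44 span-scaled), and H2-Ab1 and H2-Eb1 had log2 folds of 0.81 and 0.88. The Lrrc25-/- MC38 library stood highest for all 3 chains, and without it the folds were 0.44, 0.44 and 0.53, which were not called. H2-Aa and H2-Ab1 were also not called without the WT B16F10 library (0.72 and 0.74), and none of the 3 was called after barcodes with tumor cell RNA were left out (0.48, 0.53 and 0.58). In the class I group, Tapbp and Tap1, which load peptides, rose from 91.6 and 111 to 182 and 237 CPM and from 60.8 and 61.9 to 95.9 and 116 CPM (log2 1.04 and 0.78). The nonclassical class I genes H2-Q7 and H2-T23 had log2 folds of 0.66 and 0.87 (1.31 and 1.62 span-scaled).

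Other genes higher in MC38 C1q-high cells included a group with roles in blood vessel growth, matrix turnover and inflammation. Vegfa, the vessel growth factor, rose from 27.3 and 66.4 to 228 and 253 CPM (log2 2.49 ± 0.28 SE, 1.86 without the WT B16F10 library and 3.11 without the Lrrc25-/- B16F10 library). Of 15 matrix metalloproteinase genes and inhibitors, 7 were higher in MC38 and 5 in B16F10, and among the former Mmp19 rose from 27.3 and 51.1 to 190 and 204 CPM and Mmp14, a membrane-bound collagenase, from 89.7 and 123 to 254 and 280 CPM (log2 2.40 and 1.35). Trem1, a receptor that amplifies inflammatory signals in myeloid cells, rose from 10.1 and 18.1 to 81.6 and 87.5 CPM (log2 2.63). Nt5e, the ecto-enzyme CD73 that forms adenosine, rose from 3.76 and 5.09 to 66.9 and 70.1 CPM (log2 3.96, 4.93 in C1q-high cells with no Cd3 UMI). All of these were higher in both MC38 libraries than in either B16F10 library. Slc22a4, an organic cation carrier, and Lpar1, a receptor for lysophosphatidic acid, had log2 folds of 3.84 and 3.87, the latter 2.88 span-scaled. The inflammasome sensor Nlrp3 and the transcription factor Klf4 had log2 folds of 1.44 and 2.14, the latter 2.75 span-scaled. Tgfbi, a secreted matrix protein, rose from 245 and 269 to 642 and 726 CPM, and the cholesterol exporter Abca1 from 44.2 and 80.0 to 406 and 341 CPM (log2 1.41 and 2.64, the latter 1.65 span-scaled). Of 16 complement genes other than C1q, 5 were higher in MC38 and 7 in B16F10, and C3, the central component, and Cfb, factor B of the alternative pathway, were among the former (log2 2.17 and 1.53).

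A few of the furthest MC38 genes were also carried by other barcodes. Sox9, a transcription factor gene that MC38 tumor barcodes express, had 59.7 and 70.9 CPM in MC38 C1q-high cells and 1.90 and 1.64 CPM in B16F10, against 988 and 881 CPM in MC38 tumor barcodes (log2 5.21, 5.83 span-scaled, 4.48 without the Ptprc condition). Nrg1, a growth factor of the epidermal growth factor family, rose from 5.70 and 9.27 to 115 and 156 CPM (log2 4.20, 3.44 span-scaled, 3.59 without barcodes that hold tumor cell RNA), and MC38 tumor barcodes held 255 and 248 CPM of it. Malat1, a long RNA that stays in the nucleus, rose from 836 and 794 to 11213 and 10670 CPM (log2 3.75, 4.35 span-scaled). Leaving out barcodes with tumor cell RNA moved the folds of Nt5e, Slc22a4, Lpar1 and Malat1 by less than 1.5-fold. That step took out only 3.33% and 4.51% of MC38 C1q-high cells, and the part of MC38 tumor cell RNA in these folds was not tested. On the B16F10 side, the largest folds belonged to genes of the tumor cells. The pigment enzyme genes Dct and Tyrp1 had no UMI in MC38 C1q-high cells, which puts them at least 25677-fold and 9755-fold higher in B16F10 at a floor of 3 counts over the group.

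Chemokines that attract monocytes and neutrophils were higher in B16F10 C1q-high cells. Of 13 members, 12 were higher in B16F10 and none in MC38, with 8 and none in both fits (median log2 −2.07, −1.27 span-scaled). Ccl2, the main monocyte attractant, stood at 7099 and 5895 CPM in B16F10 and at 630 and 469 CPM in MC38 (log2 −3.57 ± 0.28 SE, adjusted p = 4.69e-05, −2.78 span-scaled, −2.93 without the Ptprc condition). Its neighbors Ccl7 and Ccl12 had 4789 and 3979 CPM and 2778 and 1806 CPM in B16F10 against 496 and 310 CPM and 400 and 289 CPM in MC38 (log2 −3.48 and −2.72, −2.67 and −1.97 span-scaled). All 3 genes were high in both B16F10 libraries, with no overlap. Ccl8 had 2797 and 2195 CPM against 392 and 882 CPM (log2 −2.07 ± 0.37 SE, −1.27 span-scaled, −1.48 without the WT MC38 library, −2.67 without the Lrrc25-/- MC38 library), and DESeq2 did not call it. Pf4, a platelet and macrophage chemokine, had 4411 and 5422 CPM against 1513 and 1286 CPM (log2 −1.81, −1.07 span-scaled). Ccl3 and Ccl4, a related pair of inflammatory chemokines, were lower in MC38 too, and Ccl4 had 4859 and 4354 CPM in B16F10 against 292 and 232 CPM in MC38 (log2 −4.14 ± 0.28 SE, adjusted p = 2.58e-05, −3.35 span-scaled). Ccl24, an eosinophil attractant, had 36.7 and 95.2 CPM against 2.08 and 1.47 CPM (log2 −5.09, −4.34 span-scaled, −5.75 without the WT and −4.40 without the Lrrc25-/- B16F10 library).

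Cytokines made by activated macrophages followed in part. Of 17 inflammatory cytokines and mediators, 7 were higher in B16F10 and 3 in MC38, with all of these calls in both fits (median log2 −0.55). Ifnb1, which encodes interferon-beta, had 105 and 100 CPM in B16F10 and 3.65 and 3.69 CPM in MC38 (log2 −4.80 ± 0.18 SE, adjusted p = 3.43e-06, −4.04 span-scaled). Tnf, the tumor necrosis factor gene, had 392 and 594 CPM against 57.9 and 41.8 CPM (log2 −3.29 ± 0.29 SE, adjusted p = 6.7e-05, −2.48 span-scaled). Il10, an anti-inflammatory cytokine, had 178 and 311 CPM against 39.8 and 15.9 CPM (log2 −3.22 ± 0.46 SE, −2.54 span-scaled, −3.93 without the WT and −2.62 without the Lrrc25-/- MC38 library). The libraries of the 2 models did not overlap for any of the 3. Il18, whose product is released after inflammasome cleavage, had a log2 fold of −1.85, and Tnfsf9, the ligand of the costimulatory receptor 4-1BB, one of −3.70 (−2.91 span-scaled, −2.95 without the Ptprc condition). Gdf15, a stress-induced cytokine, was the farthest of the genes higher in B16F10 that tumor barcodes did not hold at a higher level. It had 1418 and 2035 CPM in B16F10 C1q-high cells, 9.65 and 18.0 CPM in MC38 C1q-high cells and 121 and 93.2 CPM in B16F10 tumor barcodes (log2 −7.01 ± 0.29 SE, adjusted p = 3.72e-06, −6.26 span-scaled). Npl, a lyase that breaks down sialic acid, had 258 and 141 CPM against 2.72 and 2.14 CPM (log2 −6.31 ± 0.23 SE).

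Type I interferon response genes did not follow Ifnb1 as a group. Of 22 members, 6 were higher in MC38 and 4 in B16F10, and 12 were not called (median log2 0.12, against 0.04 over all genes). The span-scaled fit called 8 and 4 (median 0.45). Isg15, a ubiquitin-like modifier induced by type I interferon, had 466 and 452 CPM in B16F10 and 154 and 128 CPM in MC38 (log2 −1.71, −0.95 span-scaled). Ifit1 and Rtp4, further interferon targets, had 83.4 and 91.1 CPM and 78.5 and 94.8 CPM in B16F10 against 28.9 and 17.9 CPM and 42.0 and 36.8 CPM in MC38 (log2 −1.94 and −1.14, the latter −2.09 span-scaled). All 3 were lower in both MC38 libraries than in either B16F10 library. Among the members that were higher in MC38, Oas3, an antiviral RNA sensor enzyme, rose from 6.13 and 9.39 to 25.2 and 18.2 CPM (log2 1.48 ± 0.26 SE, adjusted p = 0.00162). Zbp1, a sensor of unusual nucleic acids, stood at 41.5 and 44.0 CPM in B16F10 and at 56.6 and 68.9 CPM in MC38 (log2 0.55 ± 0.15 SE, adjusted p = 0.0143). The Zbp1 fold was 0.40 without the Lrrc25-/- MC38 library, 0.35 without barcodes that hold tumor cell RNA and 0.23 with thinned cells, and was called in none of these.

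Genes of tissue-resident macrophages were higher in B16F10 C1q-high cells. Of 14 members, 12 were higher in B16F10 and 1 in MC38, with all of these calls in both fits (median log2 −2.70). Cbr2, a carbonyl reductase, had 425 and 319 CPM in B16F10 and 10.01 and 6.91 CPM in MC38 (log2 −5.47 ± 0.21 SE, adjusted p = 3.46e-06, −4.66 span-scaled). Lyve1, a hyaluronan receptor of macrophages along vessels, had 54.9 and 46.0 CPM against 1.62 and 1.02 CPM (log2 −5.28, −4.32 with cells thinned to 1000 UMIs, −4.56 without the Ptprc condition). Igf1, the insulin-like growth factor, had 296 and 292 CPM against 21.5 and 6.07 CPM (log2 −4.67 ± 0.42 SE, −5.41 span-scaled, −5.58 without the WT and −3.78 without the Lrrc25-/- MC38 library). All 3 genes were high in both B16F10 libraries and near the bottom of the scale in both MC38 libraries. Selenop, a selenium carrier, had 1513 and 1457 CPM against 246 and 231 CPM (log2 −2.64), and Gas6, which bridges dying cells to their uptake receptors, 187 and 183 CPM against 21.5 and 22.1 CPM (log2 −3.08). Folr2, a folate receptor of resident macrophages, had a log2 fold of −2.25, and the hemoglobin scavenger receptor Cd163 one of −4.93 at low levels, from 10.9 and 10.8 to 0.212 and 0.504 CPM (−5.66 without the Lrrc25-/- MC38 library). Clec10a, a lectin of macrophages and dendritic cells, had 104 and 67.6 CPM against 5.62 and 6.85 CPM (log2 −3.75).

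Lipid handling genes were mostly higher in B16F10 as well. Of 20 members of a list for lipid-associated macrophages, 12 were higher in B16F10 and 2 in MC38, with all of these calls in both fits (median log2 −1.12). Lpl, which splits triglycerides, had 282 and 249 CPM in B16F10 and 20.9 and 6.93 CPM in MC38 (log2 −4.45, −5.24 without the WT and −3.67 without the Lrrc25-/- MC38 library). The fatty acid-binding proteins Fabp4 and Fabp5 had 414 and 333 CPM and 3594 and 2807 CPM in B16F10 against 20.2 and 16.8 CPM and 577 and 862 CPM in MC38 (log2 −4.33 and −2.17, −3.71 and −1.52 span-scaled). Plin2, which coats lipid droplets, had 1053 and 1517 CPM against 298 and 212 CPM (log2 −2.33). These 4 genes were higher in C1q-high cells than in T cells, tumor barcodes and other immune cells of the B16F10 libraries. Gpnmb, a lysosomal glycoprotein, differed in this respect: it had 516 and 587 CPM in B16F10 C1q-high cells and 54.0 and 39.2 CPM in MC38 (log2 −3.58), but 1437 and 1669 CPM in B16F10 tumor barcodes. Its fold was −2.93 after barcodes with tumor cell RNA were left out and −4.23 without the Ptprc condition. Cd63, a protein of late endosomes, was also higher in tumor barcodes (2406 and 2321 CPM in B16F10) than in C1q-high cells (1799 and 1647 CPM, log2 −1.62). Lgals3, a galectin of phagocytes, had 5367 and 5085 CPM against 2130 and 2117 CPM (log2 −1.30).

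Iron and heme handling moved in the same direction. Of 14 members, 11 were higher in B16F10 and none in MC38, with all of these calls in both fits (median log2 −1.38). Hmox1, the enzyme that opens heme, had 1222 and 1977 CPM in B16F10 and 208 and 152 CPM in MC38 (log2 −3.13 ± 0.32 SE, adjusted p = 0.000125, −2.54 span-scaled). Slc40a1, which encodes the iron exporter ferroportin, had 26.2 and 51.8 CPM against 1.06 and 0.381 CPM (log2 −5.75, −6.65 without the WT MC38 library). Blvrb, which encodes biliverdin reductase B, had 387 and 452 CPM against 149 and 193 CPM (log2 −1.30). The ferritin light chain gene Ftl1 had 16411 and 20212 CPM against 6481 and 6580 CPM (log2 −1.48, −0.67 span-scaled). All 4 genes were separated between the models, and B16F10 tumor barcodes held 134 and 151 CPM of Hmox1, far less than the C1q-high cells. Of 19 scavenger and uptake receptor genes, 13 were higher in B16F10 and 6 in MC38, and 12 and 3 in both fits. Cd68, a lysosomal macrophage marker on that list, had 1671 and 1678 CPM against 384 and 391 CPM (log2 −2.11, −1.30 span-scaled).

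Heat shock genes were higher in B16F10 C1q-high cells, led by the inducible Hsp70 pair. Hspa1a had 996 and 1063 CPM in B16F10 and 100 and 58.6 CPM in MC38 (log2 −3.74 ± 0.28 SE, adjusted p = 4.04e-05, −2.98 span-scaled), and Hspa1b had 307 and 367 CPM against 42.3 and 21.03 CPM (log2 −3.49, −2.73 span-scaled). B16F10 tumor barcodes held 18.9 and 21.4 CPM of Hspa1a, so its level there was low. Of 13 members tested, 8 were higher in B16F10 and 1 in MC38, and 5 and 1 in both fits (median log2 −0.78). Hspe1, a mitochondrial chaperonin partner, and Dnajb1, a cofactor of Hsp70, had log2 folds of −1.95 and −1.93 (−1.23 and −1.30 span-scaled). Hspb1, a small heat shock protein, had 307 and 193 CPM against 8.05 and 3.71 CPM (log2 −5.47, −4.68 span-scaled), but B16F10 tumor barcodes held 391 and 268 CPM of it. Hspa1a and Hspa1b are near-identical neighbors on chromosome 17, so how reads were split between them is uncertain. The promoters of Hspa1a and Hspb1 are shown because both genes moved with the list. They are the 250 bases before the transcription start from RefSeq (GRCm38.p6), Hspa1a at chr17:34972157-34972406 on the minus strand and Hspb1 at chr5:135887669-135887918 on the plus strand, and capitals mark matches to GAANNTTC, the palindromic pair of heat shock element units.
Hspa1a: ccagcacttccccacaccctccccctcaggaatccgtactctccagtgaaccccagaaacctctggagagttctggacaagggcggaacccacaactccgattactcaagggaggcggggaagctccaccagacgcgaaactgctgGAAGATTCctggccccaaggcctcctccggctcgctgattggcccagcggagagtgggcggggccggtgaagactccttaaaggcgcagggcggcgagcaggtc
Hspb1: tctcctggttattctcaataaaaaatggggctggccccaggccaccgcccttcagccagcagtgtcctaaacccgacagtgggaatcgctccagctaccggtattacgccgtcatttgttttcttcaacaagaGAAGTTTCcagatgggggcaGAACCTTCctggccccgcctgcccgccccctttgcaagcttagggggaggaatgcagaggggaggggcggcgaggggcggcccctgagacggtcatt
The Hspa1b promoter was 98.8% identical to that of Hspa1a and holds the same match. On either strand the motif was found in 2199 of 32851 promoters of the same length (6.69%), and a match is a description of the letters only.

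Stress and metabolic genes also stood higher in B16F10 C1q-high cells, partly with levels that tumor barcodes exceeded. Of 18 genes of the integrated stress response, 15 were higher in B16F10 and 1 in MC38. Atf4, its central transcription factor, had 222 and 295 CPM against 91.9 and 106 CPM (log2 −1.38, −0.57 span-scaled), and Slc3a2, a subunit of amino acid transporters, 393 and 556 CPM against 171 and 191 CPM (log2 −1.38). Asns and Shmt2, which make asparagine and shuttle single carbons, had log2 folds of −2.39 and −2.36, and B16F10 tumor barcodes held more of both than the C1q-high cells, at 153 and 174 CPM and at 112 and 110 CPM. The Shmt2 fold was −1.75 span-scaled, −1.55 without barcodes that hold tumor cell RNA and −2.99 without the Ptprc condition, and the Asns fold −1.69 with cells thinned to 1000 UMIs and −3.07 without the Ptprc condition. Of 29 glycolysis and hypoxia genes, 15 were higher in B16F10 and 6 in MC38, and Gapdh, a glycolytic enzyme, had 4312 and 3809 CPM against 1460 and 1646 CPM (log2 −1.39, −0.74 span-scaled). Without barcodes that hold tumor cell RNA and with span scaling, the Gapdh fold was −0.34 and that of the cytokine Mif −0.03, and neither was called. All 29 genes of the nuclear-encoded respiratory chain were higher in B16F10, with 23 in both fits (median log2 −1.29, −0.69 span-scaled), among them Cox4i1 with 1586 and 1337 CPM against 468 and 554 CPM (log2 −1.52). For none of these 29 was the level in both B16F10 libraries highest in C1q-high cells, set against T cells, other immune cells and tumor barcodes. The share of mitochondrial UMIs, given above, was higher in MC38 libraries.

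Most cell cycle genes were higher in B16F10 C1q-high cells. Of 30 members, 23 were higher in B16F10 and 3 in MC38 (median log2 −1.26), and 20 and 3 in both fits. Stmn1, a regulator of microtubules in dividing cells, had 507 and 360 CPM in B16F10 and 129 and 152 CPM in MC38 (log2 −1.61, −0.99 span-scaled). Pcna, the replication clamp, had 303 and 254 CPM against 128 and 107 CPM (log2 −1.24, −0.57 span-scaled), and was not called when barcodes with tumor cell RNA were also left out (−0.43). Top2a, the topoisomerase of dividing cells, went the other way with 97.1 and 70.4 CPM against 179 and 178 CPM (log2 1.11). For no member did C1q-high cells hold the highest level among C1q-high cells, T cells, other immune cells and tumor barcodes in both libraries of the higher model.

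**Figure D3:**
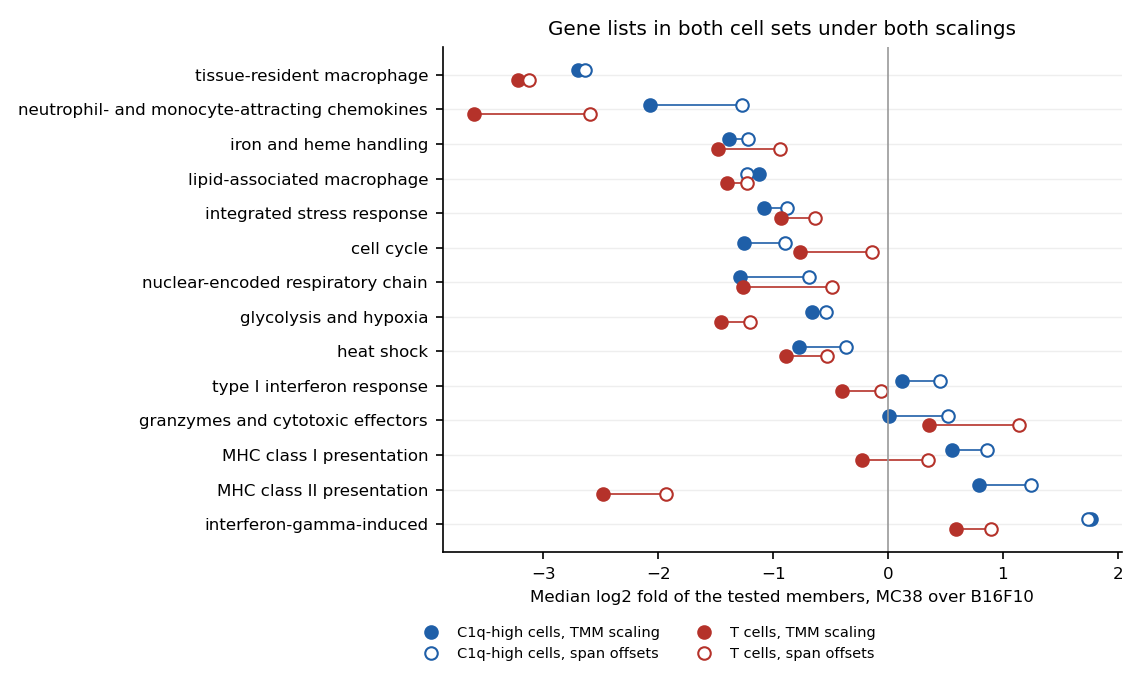
Median log2 fold of MC38 over B16F10 (horizontal axis) of 14 gene lists in C1q-high cells (blue) and T cells (red), with TMM scaling (filled) and with span scaling (open). The interferon-gamma list lies at 1.76 in C1q-high cells and the tissue-resident list at −2.70, and MHC class II genes lie on opposite sides in the 2 sets (0.79 and −2.48).

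In T cells, 3405 of 11609 genes tested were higher in MC38 (29.3%) and 3366 in B16F10 (29%), and 1601 (13.8%) and 1812 (15.6%) in both fits. Scaling to library totals alone moved the median of all genes by 0.468 on the log2 scale and the counts to 5180 and 1950. The libraries of the 2 models did not overlap for 79.1% of genes, and the median over all genes was 0.02. Here too the called shares depended on span. Among genes with a mean of at least 10 CPM, 77.8% in the shortest span bin were higher in B16F10 and 3.46% in MC38. In the longest bin, 4.37% were higher in B16F10 and 79.7% in MC38. The T cell sums held RNA of other cells in unequal amounts. Macrophage markers summed to 1612 and 1541 CPM in B16F10 and 379 and 837 CPM in MC38, B cell markers to 948 and 154 CPM against 21.2 and 32.1 CPM, and melanocyte markers to 710 and 623 CPM against 17.7 and 15.3 CPM. NK cell markers ran the other way, with 91.7 and 157 CPM in B16F10 and 783 and 510 CPM in MC38, but its defining members Ncr1 and Klrb1c stood at 9.87 scaled CPM or less in all 4 libraries and were not called. Of the T cells, 47.1% and 52.3% in B16F10 and 71.1% and 59.7% in MC38 held Cd8a or Cd8b1 and no Cd4 UMI, and 30.5% and 35.9% against 51.6% and 47.4% did so with cells thinned to 1000 UMIs.

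Of the 6 granzymes tested from the cluster on chromosome 14, 5 were higher in MC38 T cells and Gzmb was not called. Granzymes are serine proteases that cytotoxic cells deliver into their targets. Gzmf stood at 48.8 and 48.4 CPM in B16F10 and at 2370 and 1321 CPM in MC38 (log2 5.17 ± 0.29 SE, adjusted p = 6.74e-08, 5.98 span-scaled), and its fold ran from 4.20 in T cells with no C1q UMI to 6.13 without barcodes that hold tumor cell RNA. Gzmd had 12.99 and 38.5 CPM against 643 and 286 CPM (log2 4.06 ± 0.45 SE, adjusted p = 1.39e-05, 4.99 span-scaled), and 4.86 without barcodes that hold tumor cell RNA, 5.15 without the Lrrc25-/- B16F10 library and 3.44 without the WT MC38 library. Both MC38 libraries were high for both genes, the WT library more so. Gzme had 3.15 and 65.7 CPM against 368 and 179 CPM (log2 3.19 ± 0.71 SE, adjusted p = 0.00179, 4.10 span-scaled), and its fold ran from 2.05 without the WT B16F10 library and 2.31 without the WT MC38 library to 6.42 without the Lrrc25-/- B16F10 library, while DESeq2 did not call it. Gzmg had 2 UMIs in both B16F10 libraries together and 384 and 76.9 CPM in MC38, a ratio of 763 (95% counting interval 211 to 6301). Gzmc had 577 and 352 CPM against 1304 and 830 CPM (log2 1.21 ± 0.21 SE, adjusted p = 0.000327, 2.16 span-scaled), and 0.25, not called, in T cells with no C1q UMI. These genes are close copies, so how reads were split among them is uncertain. In C1q-high cells, Gzmf stood at 65.4 and 56.9 CPM in MC38.

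The promoters of 4 of these genes are shown because they moved together. They are the 250 bases before the start on the minus strand of chromosome 14 from RefSeq (GRCm38.p6): Gzmc at chr14:56234658-56234907, Gzmf at chr14:56211408-56211657, Gzmg at chr14:56159580-56159829 and Gzmd at chr14:56132594-56132843. Capitals mark matches to AACCACA, the core motif of the Runx family, whose members act in cytotoxic T cells.
Gzmc: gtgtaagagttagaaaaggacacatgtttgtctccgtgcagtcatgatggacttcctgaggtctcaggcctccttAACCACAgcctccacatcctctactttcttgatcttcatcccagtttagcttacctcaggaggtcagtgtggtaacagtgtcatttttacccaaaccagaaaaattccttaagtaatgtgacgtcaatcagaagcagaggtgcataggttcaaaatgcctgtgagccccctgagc
Gzmf: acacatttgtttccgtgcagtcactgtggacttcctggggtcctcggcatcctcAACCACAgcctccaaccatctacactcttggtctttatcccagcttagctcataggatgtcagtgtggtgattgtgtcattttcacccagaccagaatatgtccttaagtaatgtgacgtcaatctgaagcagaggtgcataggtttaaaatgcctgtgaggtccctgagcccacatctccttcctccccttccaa
Gzmg: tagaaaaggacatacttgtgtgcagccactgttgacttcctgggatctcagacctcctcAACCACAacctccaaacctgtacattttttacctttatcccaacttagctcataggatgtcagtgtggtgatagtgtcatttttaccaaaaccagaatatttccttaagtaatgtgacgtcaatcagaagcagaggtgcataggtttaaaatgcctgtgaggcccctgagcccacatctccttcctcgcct
Gzmd: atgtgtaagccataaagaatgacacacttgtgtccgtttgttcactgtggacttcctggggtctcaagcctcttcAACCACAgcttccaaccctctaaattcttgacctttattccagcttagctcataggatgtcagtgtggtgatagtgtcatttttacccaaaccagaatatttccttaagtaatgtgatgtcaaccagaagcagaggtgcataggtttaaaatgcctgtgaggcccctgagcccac
Each holds 1 match, as does the Gzme promoter at chr14:56120626-56120875, which was 94.8% identical to that of Gzmd. The other pairs of the 5 were 71.5% to 83.2% identical. On either strand the motif was found in 1444 of 32851 promoters of that length (4.40%), and the matches describe the letters only. The Gzmb promoter at chr14:56262335-56262584, 44.6% to 50.9% identical to the others, also holds 1 match, on the opposite strand.

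Other cytotoxic genes did not all go with these 5 granzymes. Of 16 cytotoxic genes, 7 were higher in MC38 and 5 in B16F10, with 7 and 3 in both fits (median log2 0.36, 1.14 span-scaled). Prf1, which encodes perforin, rose from 30.7 and 60.8 to 374 and 221 CPM (log2 2.66 ± 0.31 SE, adjusted p = 2.02e-05, 3.41 span-scaled, 3.27 without the Lrrc25-/- B16F10 library). Gzmb, the best known granzyme of activated killer cells and a neighbor of Gzmc in the cluster, had 406 and 635 CPM in B16F10 and 685 and 585 CPM in MC38, which overlap (log2 0.32, adjusted p = 0.272, not called). The Gzmb call depends on the scaling, since it was 1.28 and called span-scaled, and it was −0.0042 without the WT B16F10 library. Gzma, a granzyme encoded elsewhere in the genome, went the other way with 214 and 336 CPM against 23.4 and 110 CPM (log2 −2.34 ± 0.29 SE, adjusted p = 3.04e-05, −1.56 span-scaled). Its fold was −1.66 without the Lrrc25-/- B16F10 library, −1.30 without the WT MC38 library and −3.56 without the Lrrc25-/- MC38 library. Gzmk, next to Gzma in the genome, had 38.6 and 100 CPM against 15.4 and 20.4 CPM (log2 −1.89, −2.50 span-scaled, −2.48 without the WT and −1.10 without the Lrrc25-/- B16F10 library). Gzmc, Gzmd, Gzme, Gzmf and Gzmg thus lay on the opposite side from Gzma and Gzmk, and the cluster member Gzmb on neither.

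The granzyme folds were also computed in T cells with Cd8a or Cd8b1 and no Cd4 UMI (CD8 T cells) and in those with Cd4 and no Cd8 UMI (CD4 T cells, 59 and 118 cells in B16F10, 75 and 170 in MC38). In CD8 T cells the log2 folds were 4.77 for Gzmf, 4.08 for Gzmd, 2.50 for Prf1 and −2.39 for Gzma, all called, and 0.45 for Gzmb, not called. In CD4 T cells, Gzmd and Gzma were called at 4.89 and −2.50, while Gzmc and Prf1 were not (0.94 and 0.55). Lag3, Xcl1, Slamf6 and Ass1, described below, were not called in CD4 T cells either (0.43, −0.41, −0.47 and −0.53). Gzmb was lower in MC38 CD4 T cells (log2 −0.85, adjusted p = 0.0322), as was Ifng (log2 −0.99, adjusted p = 0.0175). The difference between CD4 and CD8 T cells was not tested.

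**Figure D4:**
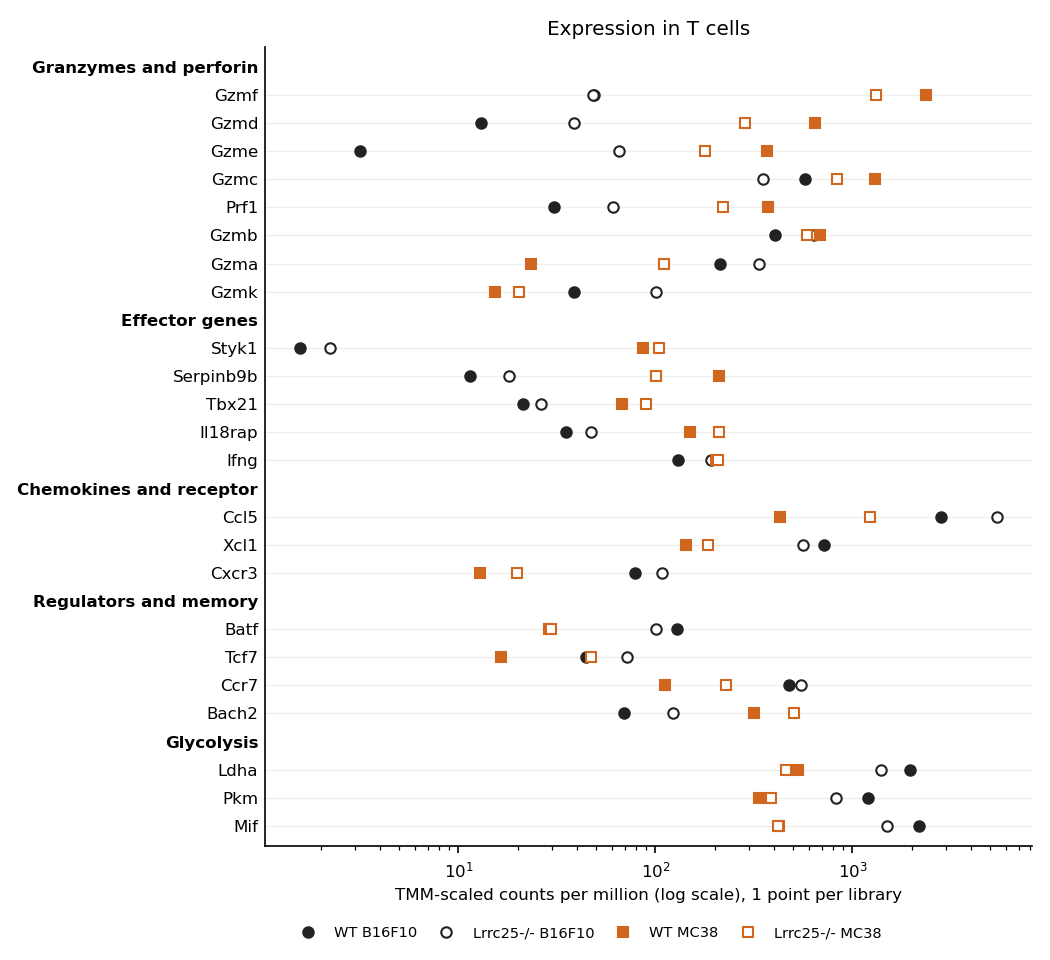
Scaled CPM (horizontal axis, log scale) of 23 genes in T cells, in the WT (filled) and Lrrc25-/- (open) libraries of B16F10 (black circles) and MC38 (orange squares). Gzmf lies near 48 in both B16F10 libraries and at 2370 and 1321 in MC38, Gzmb overlaps, and Gzma lies lower in MC38 at 23.4 and 110.

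Some receptors and factors of cytotoxic lymphocytes were higher in MC38 T cells. Of 15 NK receptor genes, 6 were higher in MC38 and 3 in B16F10 (6 and 2 in both fits, median log2 0.37), and the remaining 6 were not called. Klre1, a receptor shared by NK and T cells, rose from 37.0 and 65.9 to 171 and 131 CPM (log2 1.55, 2.25 span-scaled, 0.80 with cells thinned to 1000 UMIs), and Klri2 and Klrc2 had log2 folds of 2.89 and 2.40 (3.62 and 3.58 without the Lrrc25-/- B16F10 library, and 1.5 for Klrc2 with thinned cells). Tbx21, which encodes the transcription factor T-bet, rose from 21.3 and 26.3 to 67.3 and 90.0 CPM (log2 1.72 ± 0.18 SE, adjusted p = 8.04e-06). Styk1, a kinase-like protein of NK cells, stood at 1.57 and 2.23 CPM in B16F10 and at 86.8 and 104 CPM in MC38 (log2 5.60 ± 0.26 SE, adjusted p = 1.41e-08, 4.99 span-scaled, 6.25 in CD8 T cells). The libraries of the 2 models did not overlap for these 5 genes. Serpinb9b, a granzyme inhibitor of the Serpinb9 family, rose from 11.4 and 18.0 to 211 and 101 CPM (log2 3.21, 2.60 in T cells with no C1q UMI), and Il18rap, a subunit of the interleukin-18 receptor, from 35.0 and 47.0 to 150 and 210 CPM (log2 2.13). Csf1, the growth factor of macrophages, rose from 14.6 and 13.4 to 64.7 and 94.4 CPM (log2 2.53, 3.44 with cells thinned). Genes with less known roles in T cells were among the farthest in MC38: Frmd5 and Filip1 had log2 folds of 4.58 and 3.93 (3.42 and 2.71 span-scaled, 5.55 and 4.65 without the Lrrc25-/- B16F10 library), and the motor protein gene Myo10 and the zinc transporter gene Tmem163 had 3.53 and 3.51 (2.28 and 2.26 span-scaled).

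The balance of T cell cytokines depended on the scaling. Of 14 T cell cytokines, 7 were higher in B16F10 and 2 in MC38 with TMM, 6 and 5 with span scaling, and 6 and 2 in both fits (median log2 −1.17, −0.18 span-scaled). Ifng, which encodes interferon-gamma, had 131 and 192 CPM in B16F10 and 202 and 209 CPM in MC38 (log2 0.37, adjusted p = 0.108, not called, 1.25 and called span-scaled). Both MC38 libraries were above both B16F10 libraries for Ifng, but the gap between the models was smaller than the gap between the B16F10 libraries. Xcl1, which draws cross-presenting dendritic cells, had 714 and 561 CPM against 143 and 184 CPM (log2 −1.96, −1.01 span-scaled, −2.57 in CD8 T cells). Ccl5, a chemokine stored by effector and memory T cells, had 2826 and 5429 CPM against 430 and 1222 CPM (log2 −2.43 ± 0.24 SE, adjusted p = 6.77e-06, −1.56 span-scaled), with −1.77 without the Lrrc25-/- B16F10, −1.73 without the WT MC38 and −3.26 without the Lrrc25-/- MC38 library. Penk, which encodes enkephalin, had a log2 fold of −1.81 (−0.95 span-scaled, −1.20 in T cells with no C1q UMI). Cxcr3, the receptor of Cxcl9 and Cxcl10, had 78.3 and 108 CPM against 12.9 and 19.9 CPM (log2 −2.51 ± 0.18 SE, adjusted p = 6.65e-07, −1.53 span-scaled and −3.46 in CD8 T cells). The receptor gene was thus lower in MC38 T cells. In MC38 C1q-high cells its ligand gene Cxcl9 was higher and its ligand gene Cxcl10 was lower.

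Genes of naive and memory T cells were lower in MC38. Of 15 members, 9 were higher in B16F10 and 3 in MC38 (8 and 2 in both fits, median log2 −0.95). Ccr7, which guides T cells to lymph nodes, had 475 and 548 CPM in B16F10 and 112 and 227 CPM in MC38 (log2 −1.67), but migratory dendritic cells also express Ccr7 and their markers summed to 674 and 645 CPM against 241 and 354 CPM in these sums. Id3, a transcriptional regulator of memory T cells, had 50.4 and 37.9 CPM against 2.90 and 2.82 CPM (log2 −3.91, −2.90 span-scaled). Dapl1, a gene of naive and memory-like T cells, had 75.6 and 34.1 CPM against 6.89 and 6.92 CPM (log2 −2.85, −3.45 without the Lrrc25-/- B16F10 library), and the receptor gene Slamf6 had a log2 fold of −1.49. Bach2, a repressor that holds T cells in a less differentiated state, was 1 of the 3 higher in MC38, with 68.9 and 123 CPM against 318 and 507 CPM (log2 2.12, 0.88 span-scaled). Hopx, Sh2d1a, an adaptor of Slam receptors, and Batf, a factor of activated T cells, had log2 folds of −1.60, −1.63 and −1.95.

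Inhibitory receptors differed among themselves. Of 14 genes of inhibitory receptors and Tox, 6 were higher in MC38 and 2 in B16F10, and 3 and 2 in both fits (median log2 0.39, 0.02 span-scaled). Havcr2, which encodes TIM-3, rose from 40.1 and 52.7 to 115 and 115 CPM (log2 1.30), and Lag3 from 88.2 and 86.1 to 136 and 170 CPM (log2 0.81, 1.53 span-scaled). Pdcd1, which encodes PD-1, had 82.6 and 113 CPM in B16F10 and 81.9 and 76.4 CPM in MC38 (log2 −0.30, adjusted p = 0.162, not called), and its sign turned with library totals alone (0.17). Of 15 effector transcription factors, 8 were higher in MC38 and 2 in B16F10, but 3 and 1 in both fits (median log2 0.67, 0.11 span-scaled). The 17 genes tested of regulatory T cells gave 5 and 4 calls, and 2 and 1 in both fits, near or below the shares over all genes.

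Glycolysis, heat shock and class II genes were higher in B16F10 T cells. Of 27 glycolysis and hypoxia genes, 22 were higher in B16F10 and 3 in MC38, with 22 and 1 in both fits (median log2 −1.45). Gapdh had 4131 and 2999 CPM in B16F10 and 950 and 1039 CPM in MC38 (log2 −1.82, −0.96 span-scaled), Mif 2165 and 1492 CPM against 423 and 421 CPM (log2 −2.09, −1.18 span-scaled), and Slc2a1, the glucose transporter GLUT1, 118 and 89.6 CPM against 27.6 and 38.6 CPM (log2 −1.63). B16F10 tumor barcodes held 9960 and 9101 CPM of Gapdh, more than the T cells. Ldha and Pkm, enzymes at the end of glycolysis, had log2 folds of −1.76 and −1.46. Hspa1a had 745 and 635 CPM against 41.3 and 33.7 CPM (log2 −4.20, −3.24 span-scaled), and 9 of 13 heat shock genes were higher in B16F10 against 1 in MC38. The difference in Hsp70 thus had the same sign in T cells and in C1q-high cells. Of 10 class II genes, 9 were higher in B16F10 and none in MC38 (median log2 −2.48), with 2041 and 2059 CPM of H2-Aa in B16F10 and 251 and 413 CPM in MC38 (log2 −2.67, −1.81 span-scaled, −2.05 without barcodes that hold tumor cell RNA). Mouse T cells make little class II, and all 10 macrophage markers, 7 of 7 B cell markers tested and 6 of 7 migratory dendritic cell markers tested were higher in B16F10 T cell sums too, but their part in the class II result was not tested.

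The tumor model effects of the 2 cell sets were then compared with each other in a single fit with library as a block. Of 15128 genes, 957 had a larger fold toward MC38 in C1q-high cells than in T cells (6.33%) and 497 a larger fold toward B16F10 (3.29%). Of 11532 genes tested in both sets, 5430 were called the same way in both and 157 opposite ways. All 10 class II genes differed toward MC38 in C1q-high cells, with a median difference of 3.27, against 0.02 over all genes. Ass1 differed by 3.61 ± 0.17 SE (adjusted p = 5.67e-05), since it was higher in MC38 in C1q-high cells and higher in B16F10 in T cells, where it had 147 and 136 CPM against 45.5 and 78.5 CPM (log2 −1.22). Vdr, the vitamin D receptor, and Arhgap24, a regulator of Rac, differed by 3.57 and 3.58. Vdr rose from 5.18 and 9.82 to 69.4 and 80.9 CPM in C1q-high cells and had 9.84 and 17.0 CPM against 10.3 and 12.2 CPM in T cells. Of the glycolysis and hypoxia genes, 13 of 29 differed toward MC38 in C1q-high cells and none the other way. The class I genes gave 13 and none of 21 (median 0.89).

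The make-up of the immune cells also differed between libraries. C1q-high cells made up 65.4% and 49.3% of immune cells in B16F10 and 66.5% and 62.3% in MC38, and T cells 11.2% and 16.4% against 7.16% and 11.2%. The C1q-high ranges of the 2 models overlapped, and the T cell ranges met at 11.2%. After thinning to 1000 UMIs, C1q-high cells made up 39.7% and 24.8% in B16F10 against 46.1% in WT MC38 and a mean of 43.8% over the MC38 libraries. T cells then made up 11.9% and 15.8% against 6.12% in WT MC38 and a MC38 mean of 8.29%. The ranges did not overlap for either set after thinning. With 2 libraries against 2 the exact permutation test cannot give a p below 0.333, so these shares carry no test. Cells with at least 2 UMIs of Cd79a and Cd79b, which mark B cells, made up 3.30% and 2.82% in B16F10 and 0.208% and 0.338% in MC38, and those with at least 2 UMIs of Siglech, a receptor of plasmacytoid dendritic cells, 3.56% and 2.42% against 0.083% and 0.244%. Thinned to 1000 UMIs, the shares were 1.24% and 1.45% against 0.065% and 0.077% for Cd79, and 2.03% and 1.45% against 0.081% and 0.169% for Siglech. Cells with at least 3 UMIs of Ccr7 and Fscn1, genes of migratory dendritic cells, made up 12.8% and 11.9% against 4.07% and 6.31%, and 1.02% and 3.01% against 0.373% and 0.631% after thinning. All 3 shares were higher in both B16F10 libraries than in either MC38 library, with and without thinning. A Ptprc UMI was required of every cell, and Ptprc stood at 180 and 230 CPM in B16F10 against 691 and 674 CPM in MC38. Without that condition, T cells made up 5.47% and 10.8% of the barcodes past the other filters in B16F10 and 5.18% and 8.81% in MC38, which overlap. The Ccr7 and Fscn1 gate was then met by 2236 and 1726 B16F10 barcodes, of which 449 and 683 held a Ptprc UMI. In B16F10 this gate thus also took in many barcodes with no Ptprc UMI, and whether its cells were migratory dendritic cells was not tested. The Cd79 gate was met by 283 and 327 B16F10 barcodes without the Ptprc condition, of which 116 and 162 held a Ptprc UMI. None of the 3 gates set a limit on C1q or Cd3 UMIs. Whether the cells of the Cd79 and Siglech gates were B cells and plasmacytoid dendritic cells was not tested.

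**Figure D5:**
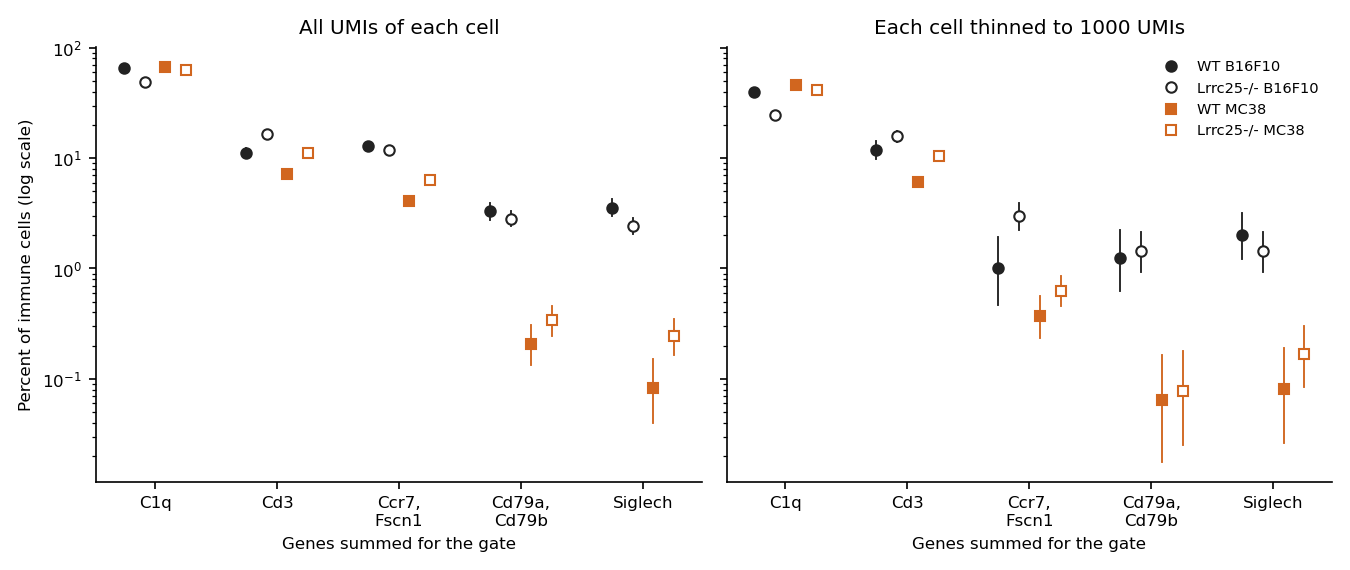
Percent of immune cells (vertical axis, log scale) past 5 gene gates in each library, with all UMIs (left) and with each cell thinned to 1000 UMIs (right). Bars are exact binomial 95% intervals, which cover counting error only, and the Cd79 and Siglech points of B16F10 lie above those of MC38 in both panels.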

How the data were processed

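UMI counts, whole numbers for each gene in each barcode, were taken as deposited, and the authors had not normalized them. The libraries were made with the SeekOne Digital Droplet 3' kit, per the labels' protocols, and mm10 is the build that the submitters' processing notes name. How reads were aligned and barcodes selected is not given in the sources used here. No barcode held under 500 UMIs.

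Cells were chosen and UMIs summed per library (Python 3.11.15, numpy 2.4.6, pandas 2.3.3, scipy 1.17.1). Antigen receptor segments (675 genes), 725 Y genes and 5 X-inactivation genes took no part. Sums were tested with edgeR 4.0.16 (R 4.3.3) by the quasi-likelihood F-test, with TMM scaling, filterByExpr, genotype and tumor model as terms, and Benjamini-Hochberg adjustment over all genes at 0.05. The standard error is the log2 fold over the root of F. Printed CPM of named genes are counts per 1e6 of the TMM-scaled library, and those of marker lists, label checks and tumor barcodes are of the plain total. Tumor barcodes were outside both cell sets, with at least 1% of UMIs from melanocyte genes (B16F10) or 0.1% from Sox9, Tnnt2 and Crabp2 (MC38). Span came from GENCODE M21 (GRCm38), and the span-scaled fit used running medians over 401 genes in order of span. The span bins and correlations were limited to protein-coding genes with a mean of at least 10 CPM, and the span-scaled fit was not. Shared replicate labels do not pair pools across tumor models beyond genotype, which the block carries. Counts were also simulated with 200 changed genes, equal means in both models for all other genes, and no span trend. There, 2-fold changes were recovered in 75%, 69% and 75% and 4-fold changes in 99%, 99% and 100% (immune, C1q-high and T cells). Calls on unchanged genes numbered 4, 12 and 0, out of 16514, 15310 and 11361 genes fitted. The real folds followed span, so these rates do not carry over to the real data. Doublets were kept, and an alternative removed the highest Scrublet scores (scanpy 1.11.5) at 0.5% per 1000 barcodes.

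The genes named are, per cell set, the 12 largest folds in each direction among genes with at least 50 CPM in both libraries of the higher model, up to 4 called examples per list by mean CPM, and 10 for the difference between sets. Some of these were passed over, and genes named beyond them were chosen after their values were seen. Results for a few genes are not reported here. Members, lists and comparisons were chosen with earlier results of these data known. Intervals are exact at 95% and cover counting error only. DESeq2 1.42.0 and the other alternatives are given at the end. Figures were drawn with matplotlib 3.10.9.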

Additional observations from a re-analysis of the deposited data

Results flagged for a closer look

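In the single fit over both cell sets, the tumor model effect differed between C1q-high cells and T cells for 1454 genes, by the quasi-likelihood test of the difference itself with Benjamini-Hochberg adjustment in edgeR. The values below are the log2 fold of MC38 over B16F10 in C1q-high cells minus that in T cells, and the 10 genes with the largest differences are given. They are given in 3 groups: class II genes, then Ass1, Arhgap24, Vdr, Slpi and Npl, then Filip1 and Frmd5.

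Class II genes moved in opposite directions. The difference was 3.52 for Cd74, 3.44 for H2-Aa (adjusted p = 5.04e-06) and 3.54 for H2-Eb1, since all 3 were higher in MC38 C1q-high cells and lower in MC38 T cells. Without barcodes that hold tumor cell RNA the differences were 2.75, 2.53 and 2.64. In T cell sums, macrophage markers stood at 1612 and 1541 CPM in B16F10 and at 379 and 837 CPM in MC38, and their part in the difference was not tested.

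Ass1 differed by 3.61, Arhgap24 by 3.58 and Vdr by 3.57. Arhgap24 had 7.12 and 11.4 CPM in B16F10 and 146 and 150 CPM in MC38 C1q-high cells, and between 4.86 and 7.56 CPM in the 4 T cell sums. Slpi, a secreted inhibitor of neutrophil proteases, differed by 3.79 (adjusted p = 0.00085). Slpi had 90.1 and 210 CPM in B16F10 and 36.9 and 96.2 CPM in MC38 C1q-high cells, and 201 and 260 CPM against 3.81 and 12.2 CPM in T cells. Neutrophil markers in the T cell sums stood at 299 and 393 CPM in B16F10 and at 8.87 and 41.0 CPM in MC38, and their part in the Slpi difference was not tested. Npl differed by −3.63 (adjusted p = 0.0107), with −4.27 when the WT B16F10 library was left out and −4.25 without barcodes that hold tumor cell RNA.

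Filip1 and Frmd5 each differed by −4.08 (adjusted p = 0.00105 and 0.00176), because they were higher in MC38 T cells and near 2 CPM or below in all 4 C1q-high sums. Without the Lrrc25-/- B16F10 library the differences were −4.75 and −5.23, and the Filip1 difference was −2.54 without barcodes that hold tumor cell RNA.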

How the results depend on the processing

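Counts of genes called between the tumor models stayed within 1.5 times of those reported under most alternatives. Leaving out each library in turn gave 9629 to 10208 genes over all immune cells, 8977 to 9659 in C1q-high cells and 4863 to 5839 in T cells. Thinning every cell to 1000 UMIs lowered the counts to 7175, 6428 and 3867. In T cells DESeq2 called 4298 genes and the CD4 T cells alone gave 2931. The span-scaled fit without barcodes that hold tumor cell RNA called 6202 genes in C1q-high cells and 3546 in T cells. Samples are paired between the models by genotype only, and without that replicate block 11025, 10389 and 6258 genes were called.

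The count of genes whose tumor model effect differed between the cell sets was the least steady. It was 2444 with no filter on low counts and 784 without the replicate block, and leaving out a library gave 749 (WT B16F10), 925 (Lrrc25-/- B16F10), 1083 (WT MC38) and 1860 (Lrrc25-/- MC38). The cause was not tested.

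Of the 93 genes named in C1q-high cells, 81 kept their direction and call under every alternative run, and of 1860 values 19 lost the call and none reversed. Of the 50 genes named in T cells, 40 did so, with 8 values that lost the call, 11 that gained it and 6 that reversed out of 988. The 3 genes that reversed were not called in the fit as reported. The Gzmb fold was −0.85 in CD4 T cells and ran from −0.0042 to 0.64 over the left-out libraries. The Ifng fold was −0.99 in CD4 T cells. The Pdcd1 fold was 0.17 with library totals alone, 0.0862 in the span-scaled fit without the Ptprc condition and 0.0789 in the one without tumor cell RNA. Of the 10 genes named for the difference between the sets, Npl lost the call without the block. The T cell share of cells differed by −1.16 percentage points (MC38 minus B16F10) without the Ptprc condition, against −4.67 points with it. Span scaling, library totals alone, the fit without the Ptprc condition and their combinations were added after the data were seen. With 2 pools per model and 1 residual degree of freedom, precision rests on the spread pooled across genes, and genes of few UMIs are limited by depth in T cells, the smaller set.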
